A study of Homo sapiens with 12 samples.

Results

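The genes described are 8 members of the insulin-like growth factor (IGF) system, the binding proteins IGFBP2, IGFBP3, IGFBP4, IGFBP5, IGFBP6 and IGFBP7 and the receptors IGF1R and IGF2R, out of 27046 genes in the count table. They were taken by symbol, each of which matched 1 row. The table's Entrez identifiers run from 3485 for IGFBP2 to 3490 for IGFBP7, and are 3480 for IGF1R and 3482 for IGF2R. The set was chosen by measured values, since IGFBP4 had one of the largest olaparib rises in knockdown cells. Their RNA was measured in BT549 cells, an established line from a human breast tumour of the triple-negative class. The 4 groups, of 3 libraries each, were cells given siRNA pools against FOSL1 and JUN together and treated with olaparib, the same knockdown cells given the solvent DMSO, cells given a non-targeting siRNA pool and olaparib, and non-targeting cells given DMSO. Treatment lasted 48 h. FOSL1 encodes FRA-1, which pairs with JUN in the transcription factor AP-1, and olaparib inhibits PARP enzymes in DNA repair. Every group was transfected, so none shows cells without siRNA, and because both AP-1 genes were targeted together the share of each cannot be told apart. The labels do not say whether the libraries of a group came from separate cultures, so p-values measure the spread between these libraries, which may be technical.

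IGF1 and IGF2 are secreted peptides that signal through IGF1R, a receptor tyrosine kinase closely related to the insulin receptor. IGF2R, also known as the cation-independent mannose 6-phosphate receptor, has no kinase domain, takes IGF2 to lysosomes and carries newly made lysosomal enzymes. The IGFBPs are secreted proteins that bind IGFs with high affinity, withholding them from the receptor or releasing them when proteases cut the binding protein, while IGFBP7 binds IGFs only weakly. In breast cancer cells the family is known as part of the growth and survival signalling around IGF1R.

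The value that led to the choice was the olaparib response of IGFBP4 in knockdown cells. Among called genes averaging 3 or more in log2 CPM, with no overlap between the 2 groups, it stood at rank 5 with a 3.34-fold rise. CTGF, just above it at rank 4, had a 3.94-fold rise, and TUFT1, just below it at rank 6, had a 3.01-fold rise. For all 8 genes the olaparib effect in knockdown cells is therefore given as a description without a test. The other comparisons that use a knockdown group are likewise a description for IGFBP4, since they share libraries with the one that chose it.

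The promoter sequences below, from RefSeq on GRCh38.p14, run from 250 bases before to 50 bases after the annotated start. They are shown for the binding protein with the largest olaparib rise, the binding protein with the largest fall on knockdown and the receptor in which a repeated motif was found. IGFBP4 lies at chr17:40443200-40443499 on the plus strand, IGFBP5 at chr2:216695500-216695799 on the minus strand and IGF2R at chr6:159968832-159969131 on the plus strand. Capitals mark TATAAA in IGFBP4 and TCACGTGA in IGF2R.
IGFBP4: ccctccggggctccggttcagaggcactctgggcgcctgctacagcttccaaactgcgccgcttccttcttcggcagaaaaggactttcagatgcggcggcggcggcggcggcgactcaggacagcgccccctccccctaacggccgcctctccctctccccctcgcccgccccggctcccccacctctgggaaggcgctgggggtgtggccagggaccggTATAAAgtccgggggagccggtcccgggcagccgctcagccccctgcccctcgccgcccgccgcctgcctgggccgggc
IGFBP5: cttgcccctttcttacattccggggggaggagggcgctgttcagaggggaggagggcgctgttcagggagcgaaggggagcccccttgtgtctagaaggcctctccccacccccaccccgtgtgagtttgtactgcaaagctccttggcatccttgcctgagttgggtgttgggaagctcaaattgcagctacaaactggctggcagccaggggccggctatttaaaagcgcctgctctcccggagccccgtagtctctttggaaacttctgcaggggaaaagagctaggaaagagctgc
IGF2R: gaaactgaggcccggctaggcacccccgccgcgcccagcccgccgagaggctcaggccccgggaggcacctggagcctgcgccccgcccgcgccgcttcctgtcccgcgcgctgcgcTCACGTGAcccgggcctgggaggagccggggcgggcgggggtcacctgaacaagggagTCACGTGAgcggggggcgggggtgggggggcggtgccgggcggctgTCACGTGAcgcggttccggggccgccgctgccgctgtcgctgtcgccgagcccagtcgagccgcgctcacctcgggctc
The AP-1 motif TGANTCA, searched on both strands, was found in none of the 9 promoter windows of the 7 genes that had an entry, and 7.71% of all 35116 windows held it. The IGF2R window held TCACGTGA 3 times, beginning 133, 75 and 29 bases before the start, and each copy contains the shorter CACGTG. At least 3 copies of TCACGTGA were present in 4 of the 35116 windows, or 0.0114%. TATAAA began 29 bases before the start of IGFBP4, and 11.5% of all windows held that motif. TCACGTGA and TATAAA were looked for only after the windows had been read. A match or its absence is a description of these letters in these windows.

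Library totals ran from 13763179 to 39715900 counts, and 12122 genes passed the filter of more than 1 CPM (a count scaled to the size of its library) in at least 3 libraries. FOSL1 was at 19.2 to 22.3 CPM in knockdown cells with olaparib and 23.8 to 29.0 CPM in knockdown cells with DMSO, against 117 to 136 CPM in control cells with olaparib and 68.5 to 74.8 CPM in control cells with DMSO. JUN was at 35.8 to 49.7 CPM in knockdown cells with olaparib and 56.1 to 68.7 CPM in those with DMSO, against 157 to 172 CPM in control cells with olaparib and 155 to 174 CPM in those with DMSO. The mesenchymal markers VIM, FN1, ZEB1, CDH2 and SPARC were present in every library, while PGR was at 0 in all 12, ESR1 in 10 and EPCAM in 9. ERBB2 RNA was present at 96.6 to 130.1 CPM. The epithelial genes KRT18, at 16.8 to 35.6 CPM, and CDH1, at 0.209 to 1.48 CPM, were detected in all 12 libraries. The endothelial genes CDH5, VWF and KDR were at 0 in all 12 libraries, and 6 haematopoietic genes summed to 2.81 CPM or less. The summed CPM of the 5 mesenchymal markers was 3837 to 4054 in knockdown cells with olaparib, 3614 to 3858 in knockdown cells with DMSO, 5710 to 5791 in control cells with olaparib and 4063 to 4254 in control cells with DMSO. The part of this marker difference in the results that follow was not tested.

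On a scale per length (RPKM, computed here from the deposited counts and gene lengths), IGFBP3 was the most abundant of the 8 RNAs in all 4 groups. IGFBP3, the main carrier of IGFs in blood, averaged 150.5 ± 2.38 RPKM in knockdown cells with olaparib, 134 ± 3.60 RPKM in knockdown cells with DMSO, 208 ± 3.75 RPKM in control cells with olaparib and 221 ± 9.44 RPKM in control cells with DMSO (SD, n = 3 each). In control cells with DMSO the order after IGFBP3 was IGFBP5 at 52.1 RPKM, IGF2R at 30.6, IGFBP4 at 16.6, IGFBP6 at 14.6, IGF1R at 3.62, IGFBP7 at 1.43 and IGFBP2 at 0.303 RPKM. Only IGFBP4 and IGFBP6 overlapped among neighbours in that order. With olaparib, control cells had IGFBP4 in place 2 at 60.7 ± 3.13 RPKM, overlapping IGFBP5 at 59.4 ± 2.69 RPKM (SD, n = 3 each). Knockdown cells with olaparib also had IGFBP4 in place 2, at 78.8 ± 8.10 RPKM (SD, n = 3), above IGF2R at 41.2 RPKM and IGFBP5 at 26.2 RPKM with no overlap. In knockdown cells with DMSO, IGFBP4 at 23.5 RPKM and IGFBP5 at 23.4 RPKM overlapped, as did IGF1R at 4.43 RPKM and IGFBP7 at 3.94 RPKM.

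**Figure D1:**
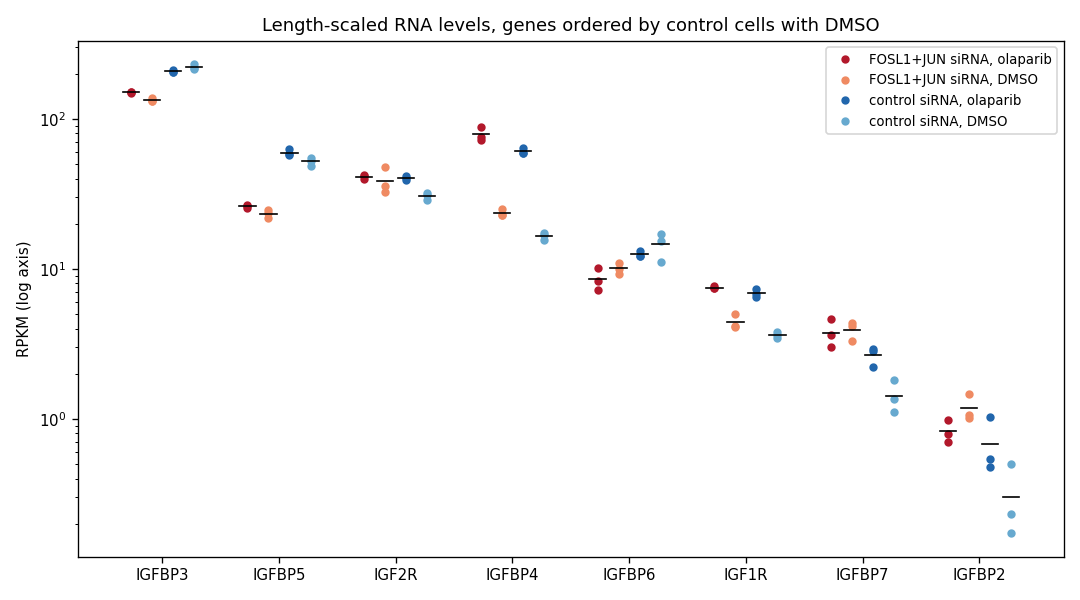
RPKM (log axis) of the 8 genes, ordered by their level in control cells with DMSO; each point is a library, each black line the mean of 3, and the groups run from knockdown with olaparib to control with DMSO within each gene. IGFBP3 lies above all others in every group, and IGFBP4 lies next to or above IGFBP5 in every group except control cells with DMSO, where it is at 16.6 RPKM.

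The make-up of the binding protein RNA differed between groups. IGFBP4 held 29.3 ± 1.72% of the summed RPKM of the 6 binding proteins in knockdown cells with olaparib, 12.0 ± 0.352% in knockdown cells with DMSO, 17.6 ± 0.670% in control cells with olaparib and 5.41 ± 0.324% in control cells with DMSO (SD, n = 3 each). The share of IGFBP3 was 56.1 ± 1.76%, 68.3 ± 0.635%, 60.5 ± 0.271% and 72.3 ± 2.29% in the same order of groups (SD, n = 3 each). The IGFBP5 share was 9.78% in knockdown cells with olaparib and 11.9% in knockdown cells with DMSO, against 17.3% in control cells with olaparib and 17.0% in control cells with DMSO. The sum itself was 269 ± 11.9 RPKM in knockdown cells with olaparib, 196 ± 4.89 RPKM in knockdown cells with DMSO, 344 ± 5.43 RPKM in control cells with olaparib and 306 ± 3.33 RPKM in control cells with DMSO (SD, n = 3 each). In no pair of groups did the ranges of the IGFBP4 share or of the sum overlap. These values are descriptions: the larger IGFBP4 share with olaparib in knockdown cells restates the rise by which the set was chosen, and the sum includes IGFBP4. These are shares of RNA, and the secreted proteins were not measured.

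**Figure D2:**
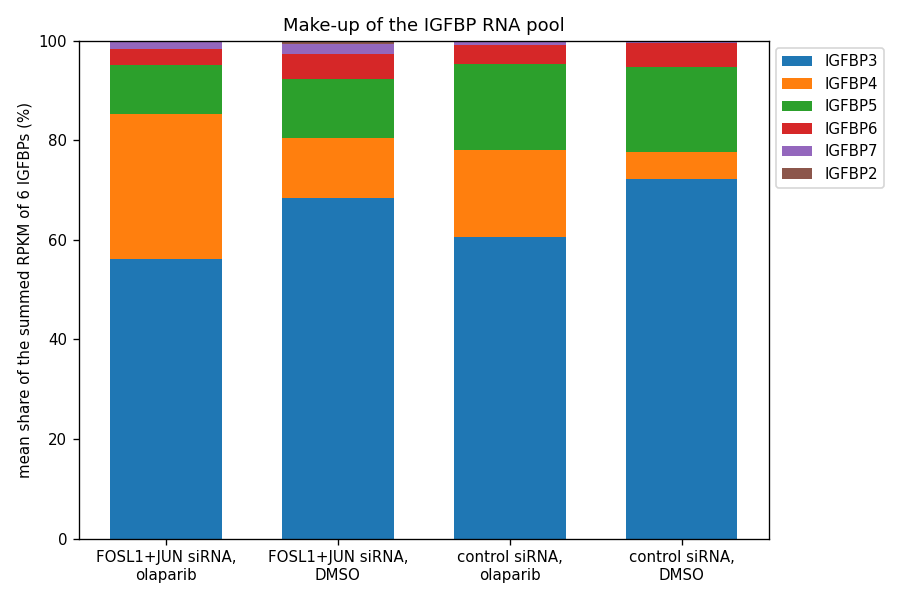
Stacked bars of the mean share (%) of each of 6 binding proteins in their summed RPKM, for the 4 groups of 3 libraries. The IGFBP4 segment is 29.3% in knockdown cells with olaparib and 5.41% in control cells with DMSO, and the IGFBP3 segment 56.1% and 72.3% in those groups. The set was chosen by the olaparib rise of IGFBP4 in knockdown cells.

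In control cells olaparib raised 5 of the 7 genes that count here and lowered none, where 46.8% of all 12122 tested genes were called, 23.6% higher and 23.2% lower. The 5 were IGFBP4, IGFBP5, IGFBP7, IGF1R and IGF2R, while IGFBP3 and IGFBP6 did not pass. IGFBP2 is given apart from the counts because of its low level, with 5 to 64 counts per library and more than 1 CPM in 9 of 12 libraries, 3 in each knockdown group, 2 of control cells with olaparib and 1 of control cells with DMSO. With it the count here is 6 of 8 higher.

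IGFBP4, which binds both IGFs and is generally known as an inhibitor of IGF action, showed the largest of these rises. It had 143.7, 132 and 132 CPM in control cells with olaparib, against 37.5, 34.6 and 39.0 CPM in control cells with DMSO. The lowest olaparib library was far above the highest DMSO library. The log2 fold change was 1.87 (SE 0.074, 3.66-fold, edgeR adjusted p = 6.36e-13), and 0.346% of tested genes had a larger absolute change. In bulk RNA of this kind, a change in the share of cells that express a gene and a change in RNA per cell cannot be told apart. In knockdown cells IGFBP4 had 197, 170.4 and 162 CPM with olaparib and 50.8, 51.3 and 55.8 CPM with DMSO. The 2 knockdown groups did not overlap, and both lay above the control group with the same treatment in all 3 libraries. The log2 differences, as descriptions, were 1.74 (SE 0.071) for olaparib in knockdown cells, 0.51 (SE 0.076) for knockdown in DMSO and 0.38 for knockdown under olaparib. Between knockdown cells with olaparib and control cells with DMSO the described difference was 2.25, or 4.76-fold.

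IGF1R, the signalling receptor, had the next smallest adjusted p. It had 90.0, 83.2 and 79.9 CPM in control cells with olaparib, against 46.3, 42.2 and 44.4 CPM in control cells with DMSO. The groups were well apart, with a log2 fold change of 0.93 (SE 0.074, 1.90-fold, edgeR adjusted p = 8.53e-09), and 3.92% of tested genes had a larger absolute change. In knockdown cells it had 91.3, 91.1 and 93.4 CPM with olaparib and 50.3, 61.6 and 50.8 CPM with DMSO. These groups did not overlap either, and the described log2 difference was 0.76 (SE 0.072, 1.69-fold).

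IGF2R had 583, 563 and 547 CPM in control cells with olaparib, against 435, 404 and 449 CPM in control cells with DMSO. The groups did not overlap, and the log2 fold change was 0.40 (SE 0.113, 1.31-fold, edgeR adjusted p = 0.015). Without control DMSO replicate 2 it was 0.35 with an adjusted p of 0.0577, the only loss of this call in 18 alternatives. With the 2 control groups fitted alone it was 0.40 (SE 0.044, edgeR adjusted p = 9.69e-10). Without knockdown DMSO replicate 2 the value stayed at 0.40, with an SE of 0.051 (edgeR adjusted p = 3.19e-06). In knockdown cells IGF2R had 558, 594 and 583 CPM with olaparib and 503, 667 and 456 CPM with DMSO. Knockdown DMSO replicate 2 was above all olaparib libraries and its 2 partners were below them, so the groups overlapped, and the described log2 difference was 0.09 (SE 0.112). It was 0.27 without knockdown DMSO replicate 2 and -0.018 without knockdown DMSO replicate 3.

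Of the binding proteins at lower or steadier levels, IGFBP7, a weak IGF binder known from blood vessels and senescent cells, had 3.73, 2.94 and 3.85 CPM in control cells with olaparib, against 1.46, 2.39 and 1.78 CPM in control cells with DMSO. The groups did not overlap, although the counts behind them were only 21 to 85, and the log2 fold change was 0.90 (SE 0.22, edgeR adjusted p = 0.00232). IGFBP5, which binds IGFs and extracellular matrix, had 359, 390.1 and 363 CPM in control cells with olaparib, against 305, 325 and 345 CPM in control cells with DMSO. This smaller difference was also free of overlap (log2 fold change 0.19, SE 0.054, edgeR adjusted p = 0.00714). IGFBP3 had 558, 544 and 539 CPM with olaparib, against 610.5, 573 and 564 CPM with DMSO in control cells. The groups did not overlap, but the test did not pass (log2 fold change -0.09, SE 0.043, edgeR adjusted p = 0.096), and with upper-quartile scaling it did (log2 fold change -0.14, adjusted p = 0.0158). IGFBP6, which prefers IGF2, had 11.8, 11.8 and 12.8 CPM in control cells with olaparib, against 10.8, 16.6 and 14.8 CPM in control cells with DMSO. These overlapped, and the test did not pass (log2 fold change -0.22, SE 0.135, edgeR adjusted p = 0.197), although without control DMSO replicate 1 it did (-0.36, adjusted p = 0.021). In knockdown cells the described olaparib differences were 0.17 (SE 0.055) for IGFBP5, -0.25 (SE 0.140) for IGFBP6 and -0.52 (SE 0.25) for IGFBP2.

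**Figure D3:**
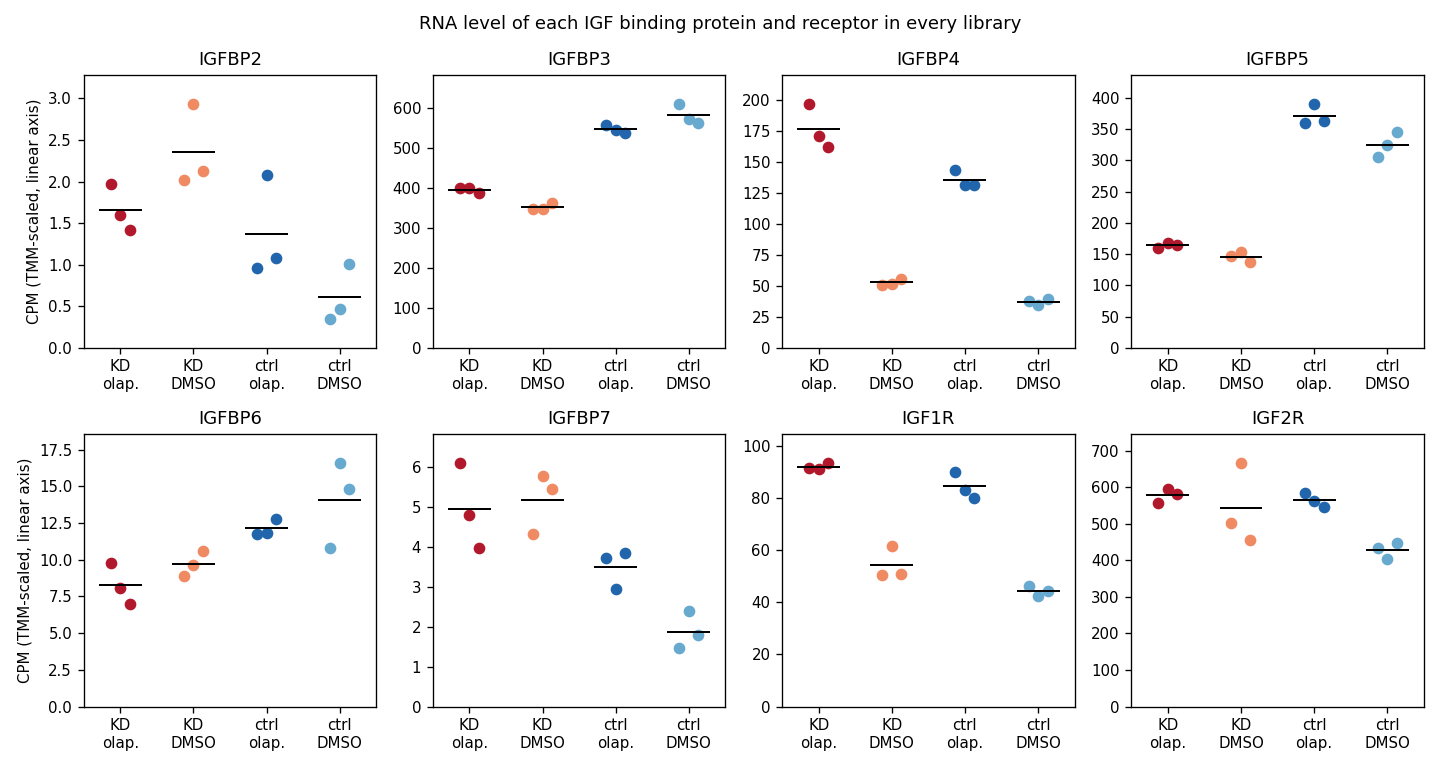
CPM (linear axis from 0, a separate scale for each gene) in all 12 libraries; each point is a library and each black line the mean of 3, with knockdown (KD) groups left of control groups and olaparib left of DMSO. IGFBP4 and IGF1R separate by treatment, IGFBP3 and IGFBP5 by siRNA, and IGF2R replicate 2 of knockdown cells with DMSO stands at 667 CPM against 503 and 456 CPM in its group.

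Knockdown moved the binding proteins in both directions. In DMSO, all 6 genes that count here passed, 3 higher and 3 lower, where 29.9% of all tested genes were called, 14.7% higher and 15.2% lower. IGFBP3, IGFBP5 and IGFBP6 fell, and IGFBP7, IGF1R and IGF2R rose. With IGFBP2 the count in DMSO is 7 of 7, 4 higher and 3 lower, and under olaparib 4 of 7. Under olaparib 4 of the 6 passed, where 38.3% of all tested genes were called, 19% higher and 19.3% lower. There IGFBP3, IGFBP5 and IGFBP6 were lower and IGFBP7 was higher. The 2 comparisons use different libraries, although the fit shares 1 estimate of the spread.

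IGFBP5 fell most. It had 147, 153 and 137 CPM in knockdown cells with DMSO, against 305, 325 and 345 CPM in control cells with DMSO. Every knockdown library was below every control library. The log2 fold change was -1.16 (SE 0.055, edgeR adjusted p = 8.89e-12), and 1.76% of tested genes had a larger absolute change. Under olaparib it had 159, 167 and 165 CPM in knockdown cells, against 359, 390.1 and 363 CPM in control cells. The gap was of the same kind, and the log2 fold change was -1.18 (edgeR adjusted p = 4.67e-12).

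IGFBP3 had 347, 348 and 364 CPM in knockdown cells with DMSO, against 610.5, 573 and 564 CPM in control cells with DMSO. The groups did not overlap and the log2 fold change was -0.72 (SE 0.044, edgeR adjusted p = 2.61e-10). Under olaparib it had 400.0, 399 and 389 CPM in knockdown cells, against 558, 544 and 539 CPM in control cells, again without overlap (log2 fold change -0.47, edgeR adjusted p = 7.56e-08). IGFBP6 had 8.93, 9.68 and 10.6 CPM in knockdown cells with DMSO, against 10.8, 16.6 and 14.8 CPM in control cells with DMSO. Here the highest knockdown library came close to the lowest control library, and the log2 fold change was -0.53 (SE 0.136, edgeR adjusted p = 0.00655). Without control DMSO replicate 2, the IGFBP6 value was -0.39 with an adjusted p of 0.054. Under olaparib IGFBP6 had 9.81, 8.08 and 7.00 CPM in knockdown cells, against 11.8, 11.8 and 12.8 CPM in control cells, with no overlap (log2 fold change -0.55, edgeR adjusted p = 0.00447).

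IGFBP7 had 4.32, 5.77 and 5.46 CPM in knockdown cells with DMSO, against 1.46, 2.39 and 1.78 CPM in control cells with DMSO. All knockdown libraries were higher, with a log2 fold change of 1.47 (SE 0.199, edgeR adjusted p = 1.22e-05), and 0.874% of tested genes had a larger absolute change. Under olaparib it had 6.11, 4.80 and 3.97 CPM in knockdown cells, against 3.73, 2.94 and 3.85 CPM in control cells. The groups were barely apart (log2 fold change 0.48, edgeR adjusted p = 0.0348), and the call ended without knockdown olaparib replicate 1 or 2 or control olaparib replicate 1 or 2, with adjusted p of 0.128, 0.0715, 0.0621 and 0.139. DESeq2 gave an adjusted p of 0.0618.

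IGFBP2, which binds both IGFs and carries an integrin-binding RGD motif, was the least abundant of the 8 RNAs. It had 2.02, 2.93 and 2.13 CPM in knockdown cells with DMSO, against 0.348, 0.466 and 1.01 CPM in control cells with DMSO. No knockdown library was as low as the highest control library, with a log2 fold change of 1.92 (SE 0.335, edgeR adjusted p = 0.000232), and 1.93 (adjusted p = 2.37e-07) with no filter on low counts. With olaparib it had 1.97, 1.60 and 1.41 CPM in knockdown cells, against 0.963, 2.07 and 1.09 CPM in control cells. These overlapped, and the test did not pass (log2 fold change 0.30, edgeR adjusted p = 0.446). Olaparib in control cells gave a log2 fold change of 1.10 (SE 0.38, edgeR adjusted p = 0.0248). That call was lost without control olaparib replicate 2 (0.74, adjusted p = 0.142) or control DMSO replicate 1 (0.86, adjusted p = 0.0967) or 2 (0.92, adjusted p = 0.108), and without control DMSO replicate 3 the value was 1.69 (adjusted p = 0.00616).

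The receptor calls on knockdown were smaller and rested partly on 1 library. In knockdown cells with DMSO, IGF1R had the 50.3, 61.6 and 50.8 CPM given above, against 46.3, 42.2 and 44.4 CPM in control cells with DMSO. The log2 fold change was 0.29 (SE 0.075, edgeR adjusted p = 0.00546), and 0.19 (adjusted p = 0.0429) without knockdown DMSO replicate 2. IGF2R gave 0.34 (SE 0.113, edgeR adjusted p = 0.0457) in the same comparison, and 0.16 (adjusted p = 0.0463) without that library. Its call was lost in 12 of 18 alternatives, which were the fit to the 2 groups alone (adjusted p = 0.191), no filter (0.113), the replicate block (0.0738) and each fit without 1 library of the other 3 groups (0.0584 to 0.136). In knockdown DMSO replicate 2, the 438 tested genes longer than 10000 bases lay a median of 0.155 above their group mean on the log2 scale, against -0.0842 to 0.0577 in the other 11 libraries. IGF1R and IGF2R are 12235 and 14042 bases long in the deposited table. That split by length was made after the data were seen, and its part in these receptor values was not tested. Under olaparib neither receptor passed, with log2 fold changes of 0.12 for IGF1R (edgeR adjusted p = 0.175) and 0.04 for IGF2R (edgeR adjusted p = 0.829).

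**Figure D4:**
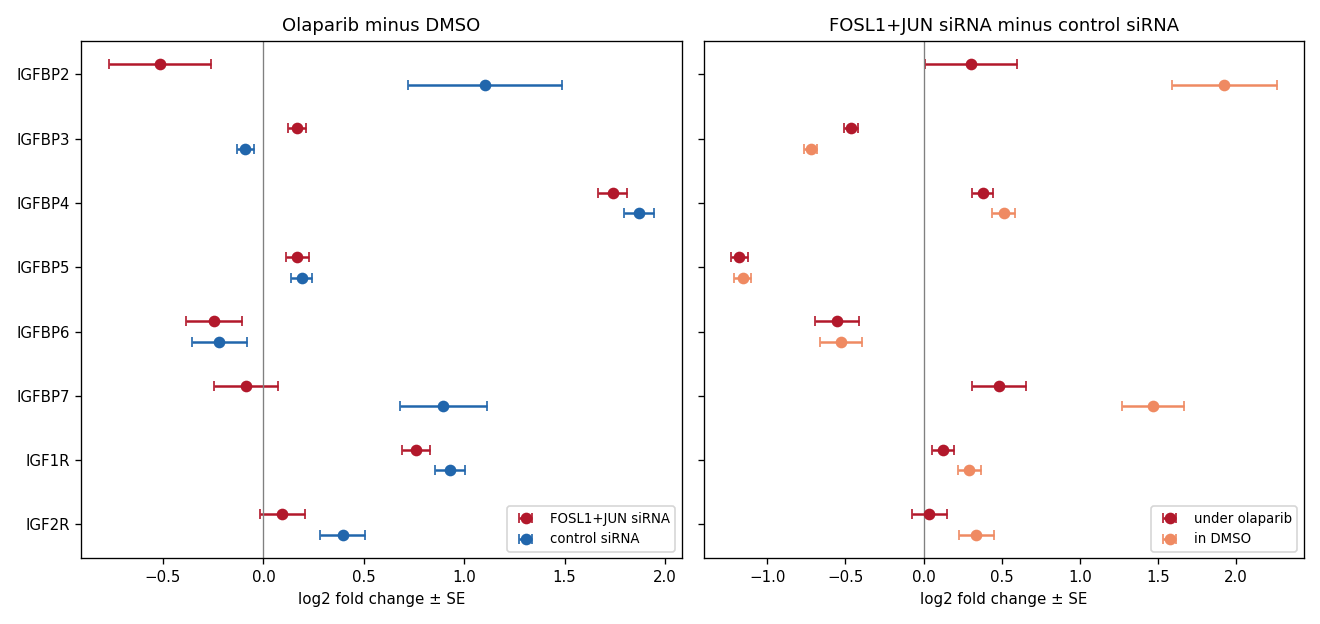
Log2 fold changes ± SE of the 8 genes, with olaparib minus DMSO in knockdown and control cells (left) and knockdown minus control siRNA under olaparib and in DMSO (right), each effect from a model of 12 libraries. IGFBP4 lies at 1.74 and 1.87 on the left, and IGFBP5 at -1.18 and -1.16 on the right.

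The interaction asks whether the olaparib effect differed between knockdown and control cells. It passed for 2 of the 6 genes that count here, 1 higher and 1 lower, where 5.69% of all tested genes were called, 2.84% higher and 2.85% lower. For IGFBP7 the olaparib effect was -0.09 (SE 0.159) in knockdown cells and 0.90 (SE 0.22) in control cells, a difference of -0.98 (SE 0.27, edgeR adjusted p = 0.0374). The described effect in knockdown cells ran from -0.22 without knockdown olaparib replicate 1 to 0.012 without its replicate 3. For IGFBP3 it was 0.17 (SE 0.044) in knockdown cells and -0.09 (SE 0.043) in control cells, a difference of 0.26 (SE 0.061, edgeR adjusted p = 0.0188). Both calls were easily lost: the IGFBP7 call ended in 8 of 12 fits that left out 1 library, and the IGFBP3 call ended without knockdown olaparib replicate 2 (0.0607), control olaparib replicate 2 (0.0591) or control DMSO replicate 1 (0.055). IGFBP2, which would make the count 3 of 7 with 2 lower, had a difference of -1.62 (SE 0.46, edgeR adjusted p = 0.0451), which was lost in 7 of those 12 fits. For IGFBP7 these were the fits without knockdown olaparib replicate 2 (adjusted p = 0.0943) or 3 (0.058), knockdown DMSO replicate 2 (0.0794) or 3 (0.0553), control olaparib replicate 1 (0.099) or 3 (0.0916), or control DMSO replicate 1 (0.1) or 3 (0.0822). For IGFBP2 they were those without knockdown olaparib replicate 2 (0.107) or 3 (0.0691), knockdown DMSO replicate 2 (0.0931), control olaparib replicate 1 (0.0555) or 2 (0.155), or control DMSO replicate 1 (0.114) or 2 (0.149).

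For the other genes the olaparib effects in the 2 kinds of cell were not distinguished. The differences were -0.02 (SE 0.077, edgeR adjusted p = 0.901) for IGFBP5, -0.03 (SE 0.194, 0.954) for IGFBP6, -0.17 (SE 0.103, 0.344) for IGF1R and -0.30 (SE 0.159, 0.296) for IGF2R. For IGFBP4 the difference, as a description, was -0.13 (SE 0.101). The SE sets how large a difference could have gone unseen, and the missing calls do not show that the effects were equal.

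Knockdown with olaparib against control with DMSO combined both. All 6 genes that count passed, 3 higher and 3 lower, where 47.2% of all tested genes were called, 23.8% higher and 23.4% lower. With IGFBP2, at 1.41 (edgeR adjusted p = 0.00318), the count is 7 of 7. IGF1R had a log2 fold change of 1.05 (2.07-fold), IGFBP7 1.38 and IGF2R 0.43 (edgeR adjusted p = 0.00937), while IGFBP5 had -0.99, IGFBP6 -0.77 (edgeR adjusted p = 0.000188) and IGFBP3 -0.56. This comparison shares libraries with those above and adds no separate evidence for them.

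The ligands were nearly absent. IGF1 had 1 to 9 counts per library, 48 in all, IGF2 had 1 count in 1 of 12 libraries, and INS had none, where 3 counts per library, the limit that a count of 0 allows, correspond to 0.0751 to 0.209 CPM. IGFALS, the acid-labile subunit of the circulating complex, had 1 count in all, and none of these 4 genes was tested. Of the insulin receptor and its relative INSRR, which had 2 counts in all, INSR was tested. It had 27.0, 29.4 and 28.7 CPM in knockdown cells with olaparib, 22.0, 20.8 and 22.0 CPM in DMSO-treated knockdown cells, 24.9, 24.7 and 24.6 CPM in control cells with olaparib and 17.7, 17.0 and 16.7 CPM in control cells with DMSO. None of the 4 groups overlapped, and the log2 fold changes were 0.53 for olaparib in control cells (edgeR adjusted p = 6.45e-06), 0.34 for knockdown in DMSO (0.00116) and 0.20 for knockdown under olaparib (0.0194).

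The genes that cut IGFBPs, or restrain that cutting, included several that moved. Of 16 listed, 11 were tested. The list holds proteases and inhibitors together, so its counts and medians give no direction for the cutting of IGFBPs. Beside all list counts stand the shares of all tested genes called, 46.8% for olaparib in control cells, 29.9% for knockdown in DMSO and 38.3% for knockdown under olaparib. Olaparib in control cells raised 6 and lowered 2 (median log2 fold change 0.19, against -0.01 over all tested genes), knockdown in DMSO raised 2 and lowered 6 (median -0.22, against 0.00), and knockdown under olaparib raised 1 and lowered 5 (median -0.24, against 0.01). The called shares of this list were 72.7%, 72.7% and 54.5% in these comparisons, of 11 genes. PAPPA, the metalloproteinase that cleaves IGFBP4, had 83.2, 93.0 and 100.8 CPM in knockdown cells with olaparib, 70.5, 78.1 and 66.1 CPM in DMSO-treated knockdown cells, 79.4, 78.9 and 75.6 CPM in control cells with olaparib and 40.6, 41.9 and 45.8 CPM in control cells with DMSO. Control cells with DMSO were the lowest group, without overlap. Olaparib in control cells gave 0.86 on the log2 scale (edgeR adjusted p = 3.9e-08), knockdown in DMSO 0.74 (3.99e-07) and knockdown under olaparib 0.24 (0.0119), and the interaction was -0.49 (0.00994).

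STC1 and STC2, stanniocalcins that inhibit PAPPA, were both lower with knockdown. The log2 fold changes of STC2 were -0.73 in DMSO (edgeR adjusted p = 1.78e-09) and -0.61 under olaparib (1.24e-08), and those of STC1 were -0.43 (8.91e-07) and -0.36 (6.09e-06). Olaparib in control cells raised STC2 by 0.51 on the log2 scale (edgeR adjusted p = 1.74e-07), and STC1 had -0.11 (0.0651). PAPPA2, a relative of PAPPA, averaged 1.31 CPM in knockdown cells with olaparib, 0.75 CPM in knockdown cells with DMSO, 3.32 CPM in control cells with olaparib and 1.68 CPM in control cells with DMSO. It had log2 fold changes of 1.01 for olaparib in control cells (edgeR adjusted p = 0.00256), -1.22 for knockdown in DMSO (0.00701) and -1.29 under olaparib (0.000285). The PAPPA2 values rest on 11 to 81 counts per library, with 0.412 to 1.08 CPM in knockdown cells with DMSO, and were not put through the alternatives. MMP1, a collagenase, fell by 1.48 on the log2 scale with knockdown in DMSO (edgeR adjusted p = 3.51e-10).

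Among other IGFBP-domain genes, 9 of 14 were tested, of which olaparib in control cells raised 4 and lowered 1 (median log2 fold change 0.15), knockdown in DMSO raised 2 and lowered 2 (0.08), and knockdown under olaparib raised 2 and lowered 4 (-0.29). That is 55.6%, 44.4% and 66.7% called, against 46.8%, 29.9% and 38.3% of all tested genes, with 9 genes in the list. The matricellular genes CTGF and CYR61 rose with olaparib in control cells by 3.04 (edgeR adjusted p = 1.62e-16) and 1.68 (2.29e-15) on the log2 scale. IGFBP1, the classical insulin-regulated binding protein, was at 0.349 to 2.30 CPM, and its passing the filter rested on the control libraries. That filter favoured a lower value in knockdown cells, so its log2 fold changes are descriptions, -1.28 for knockdown in DMSO and -1.83 under olaparib. IGFBP1 is among the genes of this list counted as lower in both of these comparisons. HTRA1, a secreted protease with an IGFBP-like domain that is known to cleave IGFBP5, fell by 1.00 on the log2 scale with knockdown in DMSO (edgeR adjusted p = 1.05e-11).

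Of the 23 receptor adaptors and kinases of the PI3K-AKT arm, 20 were tested. Olaparib in control cells raised 8 and lowered 4 (median log2 fold change 0.06), knockdown in DMSO raised 4 and lowered 2 (median 0.04) and knockdown under olaparib raised 3 and lowered 7 (median 0.06). That is 12, 6 and 10 of 20 called, against 46.8%, 29.9% and 38.3% of all tested genes, so the share for knockdown in DMSO was near the background. IRS2, an adaptor of the insulin and IGF1 receptors, had 4.81, 3.28 and 2.63 CPM in knockdown cells with olaparib, 1.60, 1.47 and 2.02 CPM in DMSO-treated knockdown cells, 8.22, 8.03 and 7.06 CPM in control cells with olaparib and 3.06, 2.10 and 2.55 CPM in control cells with DMSO. Olaparib libraries were above DMSO libraries within each siRNA. IRS2 rose by 1.60 with olaparib in control cells (edgeR adjusted p = 1.45e-06) and had -0.55 (0.0825) for knockdown in DMSO and -1.13 (2.98e-05) under olaparib. IRS1, the sister adaptor, rose by 0.23 with olaparib in control cells (edgeR adjusted p = 0.00446). SH2B1, another adaptor, had a value of -0.63 (edgeR adjusted p = 3.22e-06) in that comparison.

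Of 12 genes of mannose 6-phosphate sorting, the pathway IGF2R serves, all were tested, and olaparib in control cells raised 2 and lowered 2 (median log2 fold change -0.11), knockdown in DMSO raised 2 and lowered 1 (0.00), and knockdown under olaparib raised 2 and lowered none (0.04). That is 33.3%, 25.0% and 16.7% of 12 genes called, against 46.8%, 29.9% and 38.3% of all tested genes. The share for knockdown in DMSO was near the background, and a list of 12 genes is too short to read the other gaps. M6PR, the smaller mannose 6-phosphate receptor, had a log2 fold change of -0.18 with olaparib in control cells (edgeR adjusted p = 0.00446). Of 9 cell surface partners of IGFBPs, 7 were tested, with 2 higher and 2 lower for olaparib in control cells (median 0.06), 2 higher and 3 lower for knockdown in DMSO (0.11) and 3 higher and 3 lower for knockdown under olaparib (-0.42). That is 57.1%, 71.4% and 85.7% of 7 genes called, against the same shares of all tested genes. ITGB1, an integrin subunit, fell by 0.70 with knockdown in DMSO (edgeR adjusted p = 7.56e-10). Of 3 IGF2 mRNA binding proteins 2 were tested, with 1 higher and 1 lower for olaparib in control cells, 1 lower for knockdown in DMSO and 1 of each for knockdown under olaparib, and medians of -0.02, -0.12 and -0.13. IGF2BP2 had -0.32 (edgeR adjusted p = 0.000173) for knockdown in DMSO and -0.57 (1.49e-07) under olaparib. Over all 62 tested genes of the 8 lists, the interaction passed for 2 higher and 4 lower, where it passed for 5.69% of all tested genes.

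The genes whose levels ran most like each member over the 12 libraries were ranked by Pearson's r of log2 CPM, as a description. All pairs share their libraries and depth, and the differences between the 4 groups enter every r. For IGFBP4 these include the olaparib rise in knockdown cells by which the set was chosen. Its likenesses, also that with IGF1R, therefore partly restate the choice, and CRISPLD2 stood at rank 3 of that same ranking. The closest gene to IGFBP5 of all tested genes was HTRA1 (r = 0.995), with 181, 169 and 168 CPM in knockdown cells with olaparib, 159, 152 and 149 CPM in DMSO-treated knockdown cells, 337, 346 and 338 CPM in control cells with olaparib and 293, 310 and 318 CPM in control cells with DMSO. Knockdown lowered both, without overlap. The closest genes were CRISPLD2 for IGFBP4 (r = 0.992), SYTL2 for IGFBP3 (0.992), AFAP1 for IGF1R (0.986), NOTCH2 for IGF2R (0.974), LIN7B for IGFBP7 (0.954), STX10 for IGFBP6 (0.942) and SPATA20 for IGFBP2 (0.930). Between members the highest values were 0.979 for IGFBP4 with IGF1R and 0.954 for IGFBP3 with IGFBP5, and IGFBP3 with IGFBP7 gave -0.820.

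**Figure D5:**
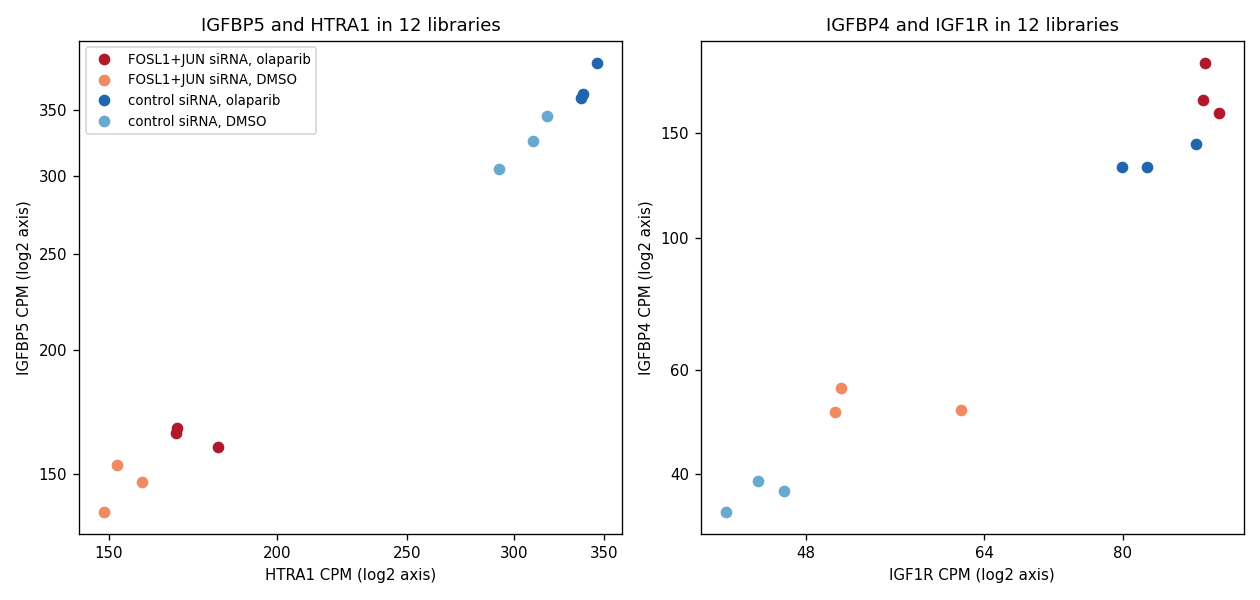
CPM of IGFBP5 against HTRA1 (left) and of IGFBP4 against IGF1R (right) in 12 libraries, on log2 axes, with each point a library coloured by group. IGFBP5 and HTRA1 separate by siRNA (r = 0.995), and IGFBP4 and IGF1R by treatment (r = 0.979). The olaparib rise of IGFBP4 in knockdown cells, by which the set was chosen, is part of the right panel.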

How the data were processed

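RNA was sequenced from 12 BT549 libraries. The submitters' processing notes name bcl2fastq 2.20.0.422 for base call conversion. Not given in the sources used here are the olaparib dose, aligner, counter, genome build and strandedness, so reads shared between related or overlapping genes could not be assessed. The authors deposited whole-number counts per gene with Entrez identifiers, symbols and lengths, per the file headers. They also deposited log2 fold changes and p-value columns adjusted as false discovery rates, per the file headers. In the authors' deposited table the log2 fold changes of the 8 genes had the same sign as those computed here in all 6 comparisons and differed by at most 0.0105. That table was used for this check alone, and its false discovery rates were not compared with the adjusted p given here.

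Rows without a symbol numbered 51, held 0.00223% to 0.00311% of a library's counts and were not named, although 4 of them were tested. Genes with more than 1 CPM in at least 3 libraries were kept (12122). A quasi-likelihood model (edgeR 4.0.16, TMM scaling, R 4.3.3) was fitted to the 4 group means of the 12 libraries (8 residual degrees of freedom), and a gene was called below a Benjamini-Hochberg adjusted p of 0.05. The biological coefficient of variation was 6.1%. CPM in the text are TMM-scaled, RPKM divide them by the deposited length, and log2 CPM used a prior count of 2. Each SE was derived from the F statistic. Limits for a count of 0 are 3 counts and cover counting error only. The fit was tested on simulated data for olaparib in control cells only, with the same spread for every gene. No change was placed in genes as low as IGFBP2 and IGFBP7. The simulation therefore does not bear on calls at such levels or on the interaction. No libraries of the same group were duplicates by a chi-square comparison of their counts, and libraries of different groups were not compared in this way.

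Alternatives were RLE and upper-quartile scaling, no filter, DESeq2 1.42.0 without independent filtering, the 2 groups alone, a replicate block and leaving out each library. Named were all 8 genes, FOSL1 and JUN, a set of pathway genes, up to 3 of the largest called changes per list and the closest genes by correlation, with only part of these printed. The 8 lists held IGF ligands, insulin receptors, other IGFBP-domain genes, IGFBP proteases with their inhibitors, and receptor adaptors. They also held mannose 6-phosphate sorting genes, IGF2 mRNA binding proteins and IGFBP surface partners. The members and lists were chosen with earlier results of these data known. Promoters came from RefSeq (GRCh38.p14).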

Additional observations from a re-analysis of the deposited data

Results flagged for a closer look

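The olaparib effect differed between knockdown and control cells, by the test of the difference itself, for IGFBP3 and IGFBP7 among the 6 genes counted, and for IGFBP2 outside the count, where 5.69% of all tested genes passed. On the log2 scale the difference was -1.62 for IGFBP2, a gene with 5 to 64 counts per library, 0.26 for IGFBP3 and -0.98 for IGFBP7. The IGFBP3 effects were 0.17 in knockdown cells and -0.09 in control cells. The IGFBP7 effects were -0.09 in knockdown cells and 0.90 in control cells, and those of IGFBP2 were -0.52 and 1.10. Each of the 3 calls was lost when certain single libraries were left out.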

How the results depend on the processing

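Over 856 alternative values for the 8 genes, 800 kept their direction and, where tested, their side of the threshold, 42 lost the call, 2 gained it and 2 described values moved. Another 10 had the other sign, and none of these 10 was a call. Of them, 2 were described olaparib effects in knockdown cells, IGFBP7 at 0.012 without knockdown olaparib replicate 3 and IGF2R at -0.018 without knockdown DMSO replicate 3. The other 8 were interactions of IGFBP5 and IGFBP6: leaving out 1 library at a time gave -0.066 to 0.023 for IGFBP5 and -0.16 to 0.13 for IGFBP6. The number of genes called for the interaction was 690, and 302 to 1129 when 1 library was left out, with 1129 without knockdown olaparib replicate 1, 343 without its replicate 2, 422 without knockdown DMSO replicate 2, 302 and 322 without control olaparib replicates 1 and 2, and 434 and 349 without control DMSO replicates 1 and 2. Of the 6 genes counted there, 0 to 2 were called in those fits, against 2, and none without knockdown olaparib replicate 2 or control DMSO replicate 1. The cause was not tested.

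Replicate numbers gave no sign of pairing, since deviations of same-numbered libraries correlated at -0.269 to 0.196 and 2 of 18 pairs were over 0.1. With a replicate block, 1 of the 6 genes was called for the interaction, IGFBP7 having an adjusted p of 0.0522. The block also ended the calls of IGF2R for knockdown in DMSO (0.0738) and IGFBP7 for knockdown under olaparib (0.0529). Upper-quartile scaling moved the median of all genes to -0.05 at most for olaparib in control cells. Depth limits IGFBP2 and IGFBP7 most, with 5 to 192 counts per library.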

Other observations

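IGFBP2 and IGFBP5 are adjacent protein-coding genes on chromosome 2 in the RefSeq gene table, and knockdown in DMSO gave log2 fold changes of 1.92 for IGFBP2 and -1.16 for IGFBP5. IGFBP1 and IGFBP3 are adjacent on chromosome 7, with -1.28 for IGFBP1 and -0.72 for IGFBP3 in that comparison. The IGFBP1 value is a description, since its passing the filter rested on the control libraries. These neighbours were looked up after the values were seen.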
